A study of Homo sapiens with 4 samples.

Results

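Chromosome 18 carried 3937 of the 160601 distinct regions in the authors' list of H3K4me1 gains after depletion of LSD2 in HepG2 cells, a share of 2.45% (95% Wilson interval 2.38 to 2.53%). HepG2 is an established human line of liver tumour origin, grown here in high-glucose medium in both conditions. The call set 1 library of LSD2-KD H3K4me1, from HepG2 cells given an siRNA against LSD2, over 1 library of Cont H3K4me1, from HepG2 cells given the control siRNA GL3. Both were immunoprecipitated with the same antibody. An input library of each condition makes 4 samples in 4 groups of 1, and neither input is named in the call. The regions described here are the distinct rows of chromosome, start and end on chromosome 18, on the genome build hg19 with positions counted from 1. The word peak below means such a region.

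H3K4me1, a single methyl group on lysine 4 of histone H3, marks enhancers and the flanks of active promoters. LSD2, the product of KDM1B, removes methyl groups from this lysine and is known to act within transcribed genes. Chromosome 18 is known as a chromosome poor in genes, whose territory tends to lie at the edge of the nucleus, while the gene-rich chromosome 19 tends to lie in its interior. Trisomy of chromosome 18 is among the few human trisomies that can be carried to birth.

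The list gives positions only, with no height or fold for a peak. A peak states that the authors' software found more knockdown than control reads at that place. The read depth of both libraries is unknown, so a stretch with few peaks may be unchanged, lower or thinly covered. Per the file header, the knockdown and control libraries carry different run names, so sequencing run and condition cannot be told apart. With 1 library a group there is no test between the conditions and no replicate error. Intervals reflect counting error alone, as if peaks were independent of each other.

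The label of a gene-poor chromosome held in the gene table. Chromosome 18 had 270 protein-coding genes in the RefSeq table of GRCh38.p14, against 239 on chromosome 21, the only autosome with fewer. Per Mb of the span that holds peaks, it had 3.61 coding genes, against 3.52 on chromosome 13, the lowest, and 26.0 on chromosome 19, the highest. The median of the other 21 autosomes was 6.75. Gene counts are from another build than the peaks, and no gene position was set against a peak.

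Peaks on chromosome 18 were far less scarce than its genes. It held 52.6 peaks per Mb (95% Poisson interval 51.0 to 54.3), against a median of 54.2 per Mb over the other 21 autosomes (SD between them 8.84). The span was 74.8 Mb from the first to the last peak, without peak-free gaps of more than 1 Mb. Its density was 0.971 of that median, while its coding genes per Mb were 0.535 of theirs. It ranked 16 of 22 from the densest autosome, so 6 autosomes were sparser. Set against all other autosomes pooled, at 58.5 peaks per Mb, the ratio was 0.8997 (exact conditional interval 0.871 to 0.929).

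The other gene-poor chromosomes had nearly the same density. Chromosome 13 held 52.5 peaks per Mb, which gave a ratio of 1.003 for chromosome 18 over it (interval 0.962 to 1.05). Chromosome 4 held 53.7 per Mb, and the ratio was 0.979 (0.944 to 1.02). Both intervals include equal density, which does not show that the densities are alike beyond those limits. Chromosome 17, with a span of 78.01 Mb the one named here that is nearest in length, held 64.6 per Mb, and the ratio was 0.815 (0.782 to 0.850). Chromosome 19 held 42.8 per Mb, and the ratio was 1.23 (1.17 to 1.29). Over the 22 autosomes, peaks per Mb and coding genes per Mb were related with a Spearman rho of 0.057 and a Pearson r of -0.20. Chromosomes share both libraries and differ in length, so these values are descriptions.

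**Figure D1:**
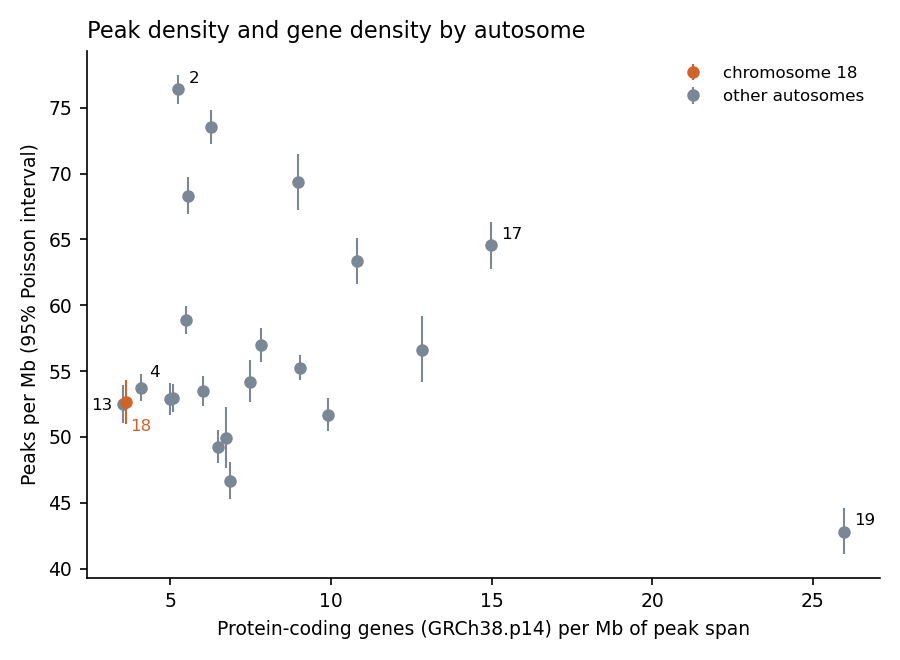
Peaks per Mb (95% Poisson intervals) against protein-coding genes per Mb of the same span for the 22 autosomes, with chromosome 18 in orange and the other autosomes in grey; chromosomes 2, 4, 13, 17, 18 and 19 are numbered. Chromosome 18 lies at the left edge with 3.61 genes per Mb beside chromosomes 13 and 4, at a peak density of 52.6 per Mb, while chromosome 19 lies at the far right at 42.8 per Mb.

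A single peak-free gap, from 15388003 to 18541202, divided the chromosome. It was 3153 kb long, and no other gap on chromosome 18 reached 1 Mb. The sides are called the long arm and the short arm here, the short arm being the one at lower coordinates. The long arm ran from 18541203 to 78013935 and held 3026 peaks on 59.5 Mb. The short arm ran from 78846 to 15388002 and held 911 peaks on 15.3 Mb.

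The long arm was the sparser of the arms. It held 50.9 peaks per Mb (49.1 to 52.7), against 59.5 per Mb (55.7 to 63.5) on the short arm, a ratio of 0.855 (exact conditional interval 0.794 to 0.922). Of the 19 autosomes with at least 5 Mb of span on both sides of their longest peak-free gap, 17 had a gap longer than 1 Mb, a limit added after the gaps were seen. On 5 of the other 16, the side after the gap was sparser than the side before it, as on chromosome 18. Only chromosome 10, with a ratio of 0.839, lay lower than chromosome 18. Taking the denser over the sparser side, chromosome 18 had 1.17 and ranked 4 of 17, against a median of 1.08 and a highest value of 1.33 on chromosome 17 among the others.

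Windows of 1 Mb showed how unevenly the peaks were spread. Of the windows, 73 were whole, which means that they touched no gap over 1 Mb and did not hold the first or last peak. They held 24 to 95 peaks, with a median of 49 and quartiles of 40 and 64. The 2575 whole windows of the other autosomes had a median of 58 and quartiles of 44 and 72, and ranged from 2 to 121. On chromosome 18, 50 of the 73 windows (68.5%) were below that median of 58, against 49.0% of the other autosomes' own windows. No window of chromosome 18 passed 95 peaks, while 3.46% of the other autosomes' windows did, and 2.37% of those were below its lowest value of 24.

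The long arm's 59 whole windows held 50.8 ± 15.8 peaks (SD over windows), with a median of 48 and a range from 27 to 93. The short arm's 14 held 60.6 ± 22.5, with a median of 58.5 and a range from 24 to 95. The variance of the window counts was 4.91 times their mean on the long arm and 8.32 times on the short arm. Over all whole windows of chromosome 18 it was 5.83 times, and on the other autosomes 2.34 to 23.2 times. Counting error alone would make variance and mean equal. The intervals given above for densities, for ratios between chromosomes and for the arm ratio are therefore too narrow. The windows of the arms overlapped widely, and the coefficient of variation was 31.1% on the long arm and 37.0% on the short arm. Over both arms it was 33.3%, the sixth highest of the 22 autosomes, whose others had a median of 30.3%. With windows of 0.5 Mb chromosome 18 ranked 11 of 22, so this place depends on the window size.

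The 5 fullest whole windows lay on both arms. The window from 12 to 13 Mb held 95 peaks (95% Poisson interval 76.9 to 116), the one from 9 to 10 Mb 94 and the one from 60 to 61 Mb 93. The window from 8 to 9 Mb held 87 and the one from 55 to 56 Mb 85. Short-arm windows thus made 3 of the 5, from an arm with 14 of the 73. The window from 60 to 61 Mb stood alone. Its neighbours held 42 peaks each, fewer than the long arm's median of 48.

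The 5 emptiest whole windows included 4 on the long arm. The window from 14 to 15 Mb, the short arm's whole window nearest the gap, held 24 peaks (15.4 to 35.7). On the long arm, the window from 27 to 28 Mb held 27, the adjoining windows from 35 to 36 and from 36 to 37 Mb held 30 and 28, and the one from 63 to 64 Mb held 31. Both sets of windows were picked as the extremes of 73, so the distance between them is a description.

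Some neighbouring windows lay on the same side of the chromosome's median. The longest run of neighbouring whole windows under the chromosome's median of 49 went from 61 to 67 Mb, 6 windows with a mean of 38.7 peaks. The longest run above it went from 29 to 34 Mb, 5 windows with a mean of 68.6. It was followed by 3 windows under the median from 34 to 37 Mb, with a mean of 33.3. The densest run of 3 or more windows, from 7 to 10 Mb on the short arm, had a mean of 86 peaks and directly followed a run of 3 sparse windows with a mean of 39.3. Counts in neighbouring windows were related with a Spearman rho of 0.20 over 71 pairs, against a median of 0.36 on the other 21 autosomes (0.067 to 0.70). Only 2 autosomes had a lower value. The named runs were picked as the longest or the densest, so they are descriptions. Whether they were longer than in a random order of windows was not tested.

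Means over stretches of 10 Mb were highest in the first. The stretch from 0 to 10 Mb had 62.9 ± 21.8 peaks per whole window (SD over 9 windows), and the one from 60 to 70 Mb had the lowest mean, 47.3 ± 17.7 (SD over 10 windows). The 6 stretches between 10 and 80 Mb other than that one had means from 49.7 to 57.8.

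The edges of the gap differed. Counting from the gap outward, the first Mb of the long arm held 68 peaks (52.8 to 86.2) and the next 62. The first Mb of the short arm held 17 peaks (9.90 to 27.2) and the next 50. In the third Mb the long arm held 74 and the short arm 86, so the sparse margin was limited to the Mb next to the gap on the short arm. At the outer ends, the last Mb of the long arm held 46 peaks and the first Mb of the short arm 57, both within the quartiles of the chromosome's windows.

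**Figure D2:**
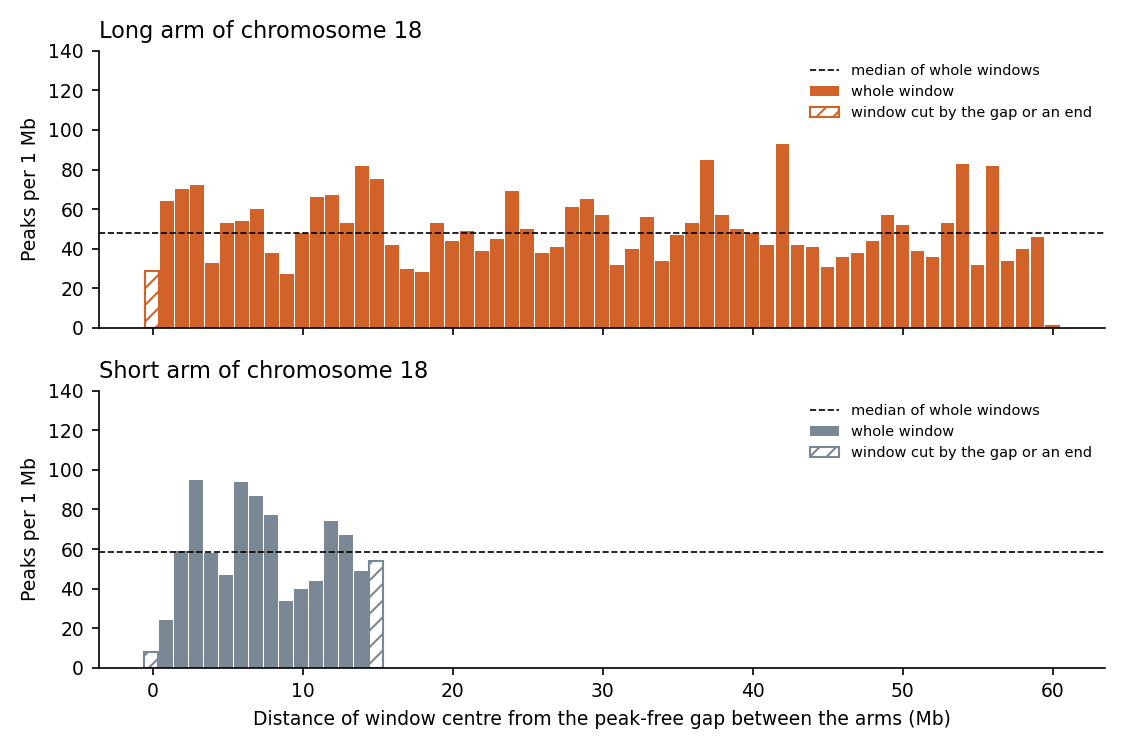
Peaks in each 1 Mb window of chromosome 18 against the distance of the window's centre from the peak-free gap, with the long arm above and the short arm below; filled bars are whole windows, hatched bars are windows cut by the gap or an end, and the dashed line is the median of the arm's whole windows. The long arm varies between 27 and 93 around a median of 48, and the short arm between 24 and 95 around 58.5. The short arm's lowest whole window is its whole window nearest the gap.

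Peaks on chromosome 18 were narrow. Their median width was 307 bp (order-statistic 95% interval 302 to 311 bp). The quartiles were 222 and 387 bp, and the widest peak had 1451 bp. The medians of the other autosomes ran from 306 bp on chromosome 5 to 334 bp on chromosome 17, with a median of 316 bp. Chromosome 18 was therefore the narrowest but one, by a small margin. Chromosomes 4 and 8 had 308 bp (305 to 311 bp on each) and chromosome 13 had 310 bp (306 to 314 bp). These intervals overlap that of chromosome 18. The pooled median of the other autosomes was 317 bp.

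The share of narrow peaks was the highest of the autosomes, but its interval overlapped those of several others. Peaks under 200 bp made up 18.97% of chromosome 18 (747 peaks, 95% Wilson interval 17.8 to 20.2%), the highest of the 22 shares. The others ran from 14.4% on chromosome 22 to 18.3% on chromosome 13, whose interval of 17.2 to 19.4% overlaps that of chromosome 18. The shares on chromosomes 4 (17.996%, 17.3 to 18.8%), 5 (18.06%, 17.3 to 18.9%) and 8 (18.2%, 17.4 to 19.1%) have intervals that overlap it too. On chromosome 19 the share was 14.9%. The fullest bin, 160 to 169 bp, held 5.49% of the peaks on chromosome 18 and 4.35% on the other autosomes.

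At the wide end, 560 peaks of 420 bp or more made up 14.2% (13.2 to 15.4%), against 18.1% of the peaks on the other autosomes pooled. Only chromosomes 4 and 5, at 14.01% and 14.02%, had lower shares, and chromosome 17 had the highest, 26.0%. The mark of 420 bp is where the width counts of the whole list drop. Peaks of 1 kb or more numbered 19, a share of 0.483% (0.309 to 0.753%), against 0.928% on the other autosomes pooled. The median over the other 21 autosomes, 0.611%, lies inside that interval. Chromosomes 4 (0.356%), 5 (0.330%), 13 (0.377%) and 19 (0.460%) had lower shares than chromosome 18.

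**Figure D3:**
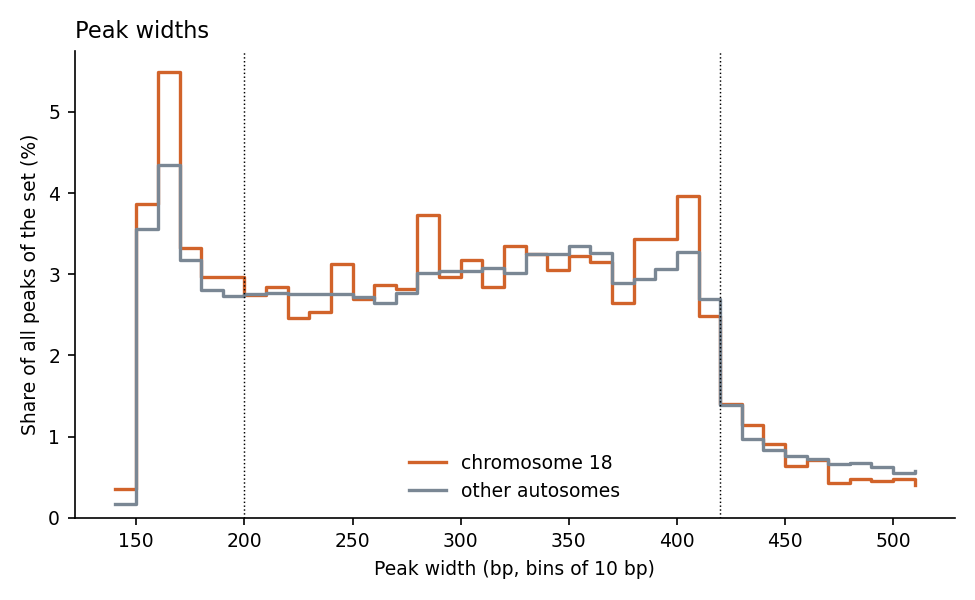
Share of peaks in each 10 bp bin of width for chromosome 18 in orange and the other 21 autosomes pooled in grey; dotted lines mark 200 and 420 bp, and the widest peaks are not drawn. The bin at 160 to 169 bp holds 5.49% of chromosome 18 against 4.35% of the others, and both sets drop at 420 bp.

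The widest peaks lay on both arms. The widest, of 1451 bp, ran from 42387543 to 42388993, and the next, of 1411 bp, from 55763113 to 55764523. They were followed on the long arm by 33731656 to 33732903 (1248 bp) and 45979603 to 45980847 (1245 bp). On the short arm lay the peaks at 3614156 to 3615343 (1188 bp), 9739940 to 9741125 (1186 bp) and 9736991 to 9738172 (1182 bp). The last 2 of these are neighbours, 1767 bp apart, in the window from 9 to 10 Mb that held 94 peaks. The remaining 3 of the 10 widest were on the long arm, at 20515526 to 20516678 (1153 bp), 72443685 to 72444795 (1111 bp) and 56065863 to 56066962 (1100 bp). Of the 10, 1 lay within 2 Mb of the gap, at 1.97 Mb, where 197 of the 3937 peaks lay. Of all 19 peaks of 1 kb or more, 16 lay on the long arm, which held 76.9% of all peaks, and 3 on the short arm. Another peak lay within 5 kb of 12 of them (63.2%, Wilson interval 41.0 to 80.9%), an interval that includes the 46.7% over all peaks.

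Windows with more peaks held wider peaks. The 19 windows in the upper quartile, with 64 or more peaks each, had a median width of 326 bp (316 to 333 bp), against 286 bp (279 to 295 bp) in the 21 windows with 40 or fewer. Peaks of 420 bp or more were 21.3% (19.3 to 23.5%) in the full windows, against 5.12% (3.74 to 6.97%) in the sparse ones. In 4 whole windows no peak was that wide, and the highest share was 29.8%, in the window from 9 to 10 Mb. The window from 3 to 4 Mb had the highest median width, 366.5 bp, and the one from 63 to 64 Mb the lowest, 263 bp.

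Across the 73 whole windows, the number of peaks and the share of 420 bp or more were related with a Spearman rho of 0.80 and a Pearson r of 0.79. The rho was 0.79 over the 59 windows of the long arm and 0.86 over the 14 of the short arm. The rho over all 73 windows was the highest of the 22 autosomes. The others had a median of 0.55 and ran from 0.16 to 0.72, the latter on chromosome 13. With a width mark of 500 bp it was 0.73 and again the highest, and with the median width of the whole list, 316 bp, it was 0.57 and the next to highest. Against the median width of the peaks in each window, the rho was 0.55 and ranked 3 of 22. Chromosomes 14 (0.63) and 13 (0.56) had higher values. These windows share both libraries, and the read coverage of a window, which bears on both counts and widths, is unknown.

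**Figure D4:**
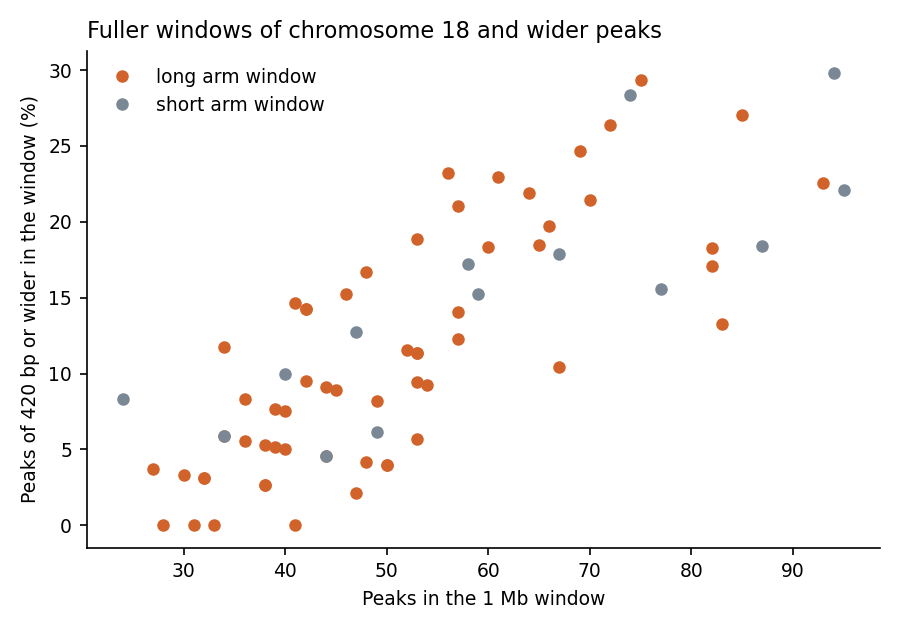
Share of peaks of 420 bp or wider against the number of peaks in each of the 73 whole 1 Mb windows of chromosome 18, with the 59 long-arm windows in orange and the 14 short-arm windows in grey. Such wide peaks make up 5.12% of all peaks in windows with 40 or fewer peaks, and 21.3% in those with 64 or more.

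The gaps between neighbouring peaks on chromosome 18 were slightly long for its density. Their median was 11.8 kb, with quartiles of 4.16 and 25.6 kb. Only chromosome 19, at 14.4 kb, had a longer median gap, although 6 autosomes had fewer peaks per Mb. The margin was small, as chromosome 9 had 11.7 kb and chromosomes 11 and 13 each had 11.5 kb. The median over the other 21 autosomes was 10.5 kb. Dividing the median by the mean gap, without gaps over 1 Mb, gives a measure that does not change when all gaps are stretched by the same factor. It was 0.632 on chromosome 18 and also 0.632 on chromosome 6, the highest, against a median of 0.606 on the other autosomes and 0.454 on chromosome 14, the lowest. This holds for gaps from peak to peak. Counted in windows of 1 Mb, the peaks of chromosome 18 ranked sixth from the most uneven, as given above.

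Close neighbours were also fewer. Another peak lay within 5 kb of 46.7% of the peaks (Wilson interval 45.1 to 48.2%), against a median of 50.8% over the other 21 autosomes. Chromosome 19, at 42.7%, was the only autosome with a lower share. Over the 22 autosomes this share went with density (Spearman rho 0.80, Pearson r 0.90), so density has to be matched. On the 5 autosomes within 1 peak per Mb of chromosome 18, which are chromosomes 5, 7, 8, 11 and 13, the share ran from 49.1 to 50.5%, and each was higher than on chromosome 18. The intervals of 4 of these 5 overlap that of chromosome 18, the exception being chromosome 7. Chromosome 4, just outside the limit at 53.7 peaks per Mb, had 48.2%, and its interval (47.3 to 49.2%) overlaps too. Of the 6 sparser autosomes, 5 also had higher shares, up to 53.4% on chromosome 14. Within 1 kb chromosome 18 had a share of 16.97%, between the 16.1% and 17.7% that bound those 5 autosomes, and was higher than 2 of them. Within 20 kb its 87.9% was likewise higher than 2 of the 5, which ran from 87.5 to 88.7%.

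**Figure D5:**
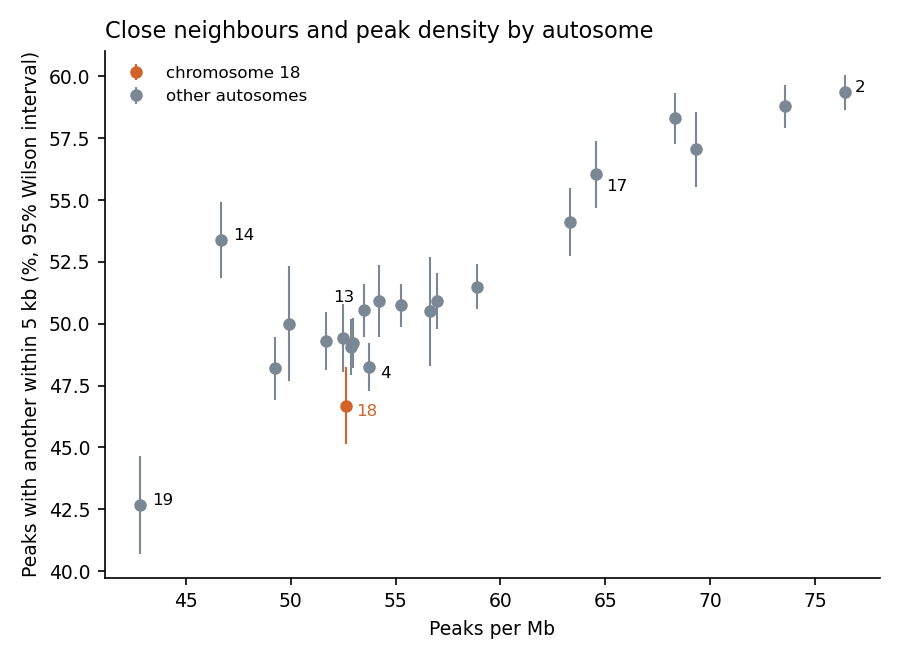
Percentage of peaks that had a neighbour within 5 kb (95% Wilson intervals) against peaks per Mb for the 22 autosomes, with chromosome 18 in orange; chromosomes 2, 4, 13, 14, 17, 18 and 19 are numbered. At 52.6 peaks per Mb chromosome 18 lies at 46.7%, under the 5 autosomes within 1 peak per Mb of it, which lie between 49.1 and 50.5%.

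The long arm had fewer close neighbours than the short arm. The share within 5 kb was 45.3% (43.5 to 47.1%) on the long arm, against 51.3% (48.0 to 54.5%) on the short arm, and the median gap was 12.3 kb on the long arm and 10.3 kb on the short arm. The intervals of this share did not overlap, but it goes with density, which also differed between the arms and was not matched. Within 1 kb the shares were 16.7% and 17.8%, with overlapping intervals.

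Joining consecutive peaks no more than 5 kb apart left 2099 single peaks, 490 pairs and 242 runs of 3 or more, which held 21.8% of the peaks. On the 5 autosomes of like density such runs held 21.6 to 24.1%, so chromosome 18 lay inside their range. Runs of 3 or more held 19.4% of the long arm's peaks and 29.7% of the short arm's. Density, which was higher on the short arm, was not matched here either. The longest runs had 8 peaks. These ran from 8984480 to 8996134, with 22.3% of its 11.7 kb covered by peaks, and from 23656833 to 23672720, with 18.05% of 15.9 kb covered. Runs of 7 peaks lay from 12458068 to 12469616 and from 71990815 to 72003216, and the first of 5 runs of 6 peaks from 3625466 to 3636162. All peaks of these 5 named runs were listed in a single row.

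Apart from the gap between the arms, 46 gaps were longer than 100 kb and 2 longer than 200 kb. The longest ran from 75683685 to 75892055, 208 kb on the long arm. The next were 205 kb from 14805780 to 15010285, 164 kb from 52050375 to 52213985 and 160.2 kb from 11520848 to 11681068. The gap of 205 kb lay in the sparse margin of the short arm. In all, 33 peaks (0.838%) had no other peak within 50 kb, against 0.776% on the other autosomes pooled.

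Peaks with close neighbours were wider. The median was 328.5 bp (316 to 343 bp) for the 668 peaks with another within 1 kb and 310 bp (301 to 320 bp) for the 1170 with the nearest between 1 and 5 kb. It was 298.5 bp (292 to 306 bp) for the 2066 with the nearest between 5 and 50 kb. On the other autosomes the same classes had 328, 320 and 310 bp. In the first class the medians were nearly equal, and in the other two chromosome 18 had the narrower peaks. The 33 peaks with no other within 50 kb had 307 bp (277 to 337 bp) on chromosome 18, against 286 bp elsewhere. That interval includes 286 bp and the medians of the other classes, so these peaks show no departure.

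The 3937 peaks were written in 4409 deposited rows, or 1.120 rows per distinct peak, against a median of 1.122 on the other 21 autosomes. A repeated row has the same chromosome, start and end, and what such a row stands for is not stated in the sources used here. Chromosome 18 ranked 12 of 22 in rows per peak, although it was the next to lowest in coding genes per Mb. Over the 22 autosomes, rows per peak and coding genes per Mb were related with a Spearman rho of 0.79 and a Pearson r of 0.91. Chromosome 19 was the highest in both, at 1.34 rows per peak and 26.0 coding genes per Mb, which weighs on the Pearson r. Peaks listed more than once numbered 399, or 10.1% (9.23 to 11.1%), against 6.92% on chromosome 13 and 7.30% on chromosome 4, the other gene-poor chromosomes, and 25.3% on chromosome 19. The median over the other 21 autosomes was also 10.1%, and their pooled share was 10.8%, so chromosome 18 was in the middle, ranking 11 of 22. The interval of chromosome 18 lies above those of chromosomes 13 (6.25 to 7.65%) and 4 (6.80 to 7.82%), the lowest shares of the 22. These intervals treat peaks as independent, while repeated peaks came in stretches, as given below, so they are too narrow.

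Of the repeated peaks, 340 were listed in 2 rows, 52 in 3 rows, 2 in 4 rows, 3 in 5 rows and 2 in 6 rows. The pair listed 6 times was adjacent, from 47016521 to 47016698 and from 47017120 to 47017440. Those listed 5 times lay from 20481402 to 20481798, from 47336907 to 47337453 and from 47337927 to 47338337. Those listed 4 times lay from 5243250 to 5243663 and from 9131284 to 9131483. Of the 52 with 3 rows, the 3 at the lowest coordinates ran from 656430 to 656629, from 2566272 to 2566688 and from 2567953 to 2568412. The 5 most repeated peaks lay on the long arm, 4 of them as adjacent pairs, while peaks in 3 or more rows were 1.39% of the long arm's peaks and 1.87% of the short arm's.

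Repeated peaks came in stretches. After a repeated peak, the next peak along the chromosome was also repeated in 56.1% of cases (224 of 399, Wilson interval 51.2 to 60.9%), 5.54 times the share over all peaks, and the same ratio had a median of 5.54 on the other autosomes. The 399 peaks formed 175 stretches, 97 of a single peak and 17 of 5 or more. The longest had 19 peaks each, from 9099385 to 9244572 over 145 kb with 2 to 4 rows a peak, and from 20332320 to 20516678 over 184 kb with 2 to 5 rows. Stretches of 10 peaks lay from 2689884 to 2804697, from 24499593 to 24765778 and from 55305225 to 55404562. In 21 of the 73 whole windows no peak was repeated, while the window from 9 to 10 Mb held 29.

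The repeated share varied along the chromosome, with intervals that are too narrow because repeated peaks came in stretches. It was 9.22% (8.24 to 10.3%) on the long arm and 13.2% (11.1 to 15.5%) on the short arm. Among stretches of 10 Mb it was highest from 20 to 30 Mb, at 16.7% (13.7 to 20.1%), and lowest in the adjoining stretch from 30 to 40 Mb, at 5.35% (3.73 to 7.63%), although these held 521 and 523 peaks. From 60 to 70 Mb it was 5.50%. Windows with 64 or more peaks had 14.4% of their peaks repeated (12.7 to 16.3%), against 4.56% (3.27 to 6.34%) in windows with 40 or fewer. Repeated peaks had a median width of 312 bp (296 to 331 bp) and single-row peaks 306 bp (301 to 311 bp), with overlapping intervals, while on the other autosomes the medians were 333 and 315 bp.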

How the data were processed

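Per the submitters' processing notes, reads were handled with BWA on hg19, with versions not given in the sources used here. Per the file header, the authors trimmed reads, removed duplicates and called peaks with MACS on LSD2-KD H3K4me1 over Cont H3K4me1, with read and fragment lengths of 128 bp, a p-value cutoff of 1e-05 and an enrichment factor of 32. The fragment length bears on how narrow a peak can be. The 3 deposited columns hold no counts or scores, so the depth is unknown and all peaks count alike.

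Rows were reduced to distinct peaks and assigned to windows by midpoint. Gaps run from edge to edge. Python 3.11.15, pandas 2.3.3 and scipy 1.17.1 were used, and the steps were tested on simulated peaks. No test was made with 1 library a group. No genome of hg19 was used, so no sequences are shown and no peak is assigned to a gene. Named regions were the 5 fullest and 5 emptiest whole windows, the 10 widest and 10 most repeated peaks, the 5 longest gaps and the 5 longest runs, with ties to the lower coordinate. The members, rules and alternatives were chosen with earlier results of these data known. The relation of window counts to widths, the matching on density and the stretches of repeated peaks were added after the values of chromosome 18 were seen.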

Additional observations from a re-analysis of the deposited data

How the results depend on the processing

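The density of 52.6 peaks per Mb on chromosome 18 was 47.8 with peaks within 1 kb merged, 24.8 for the wider peaks alone (316 bp or more, the median of the whole list), 50.5 with no gap left out and 58.96 counting every row. Its rank from the densest of 22 autosomes stayed between 15 and 19. The ratio of long over short arm stayed between 0.794 and 0.864 under 5 alternatives, all inside its interval. The alternatives reuse the same peaks, so this is no independent check. The 0.794, without the 2 Mb on each side of the gap, was chosen after seeing the data. The median width was 317 bp after merging, then the lowest of the 22, and 308 bp by rows. The share with a neighbour was 16.97% at 1 kb (rank 17 from the highest), 87.9% at 20 kb (rank 16) and 31.4% for the wider peaks (rank 19), against rank 21 at 5 kb, so the low place of chromosome 18 depends on the distance. Against the 5 autosomes of like density it was lower than all at 5 kb and higher than 2 of them at 1 kb and at 20 kb. Rows per peak were 1.129 for the wider peaks. The coefficient of variation of windows was 37.6% with 0.5 Mb (rank 11 from the highest) and 26.2% with 2 Mb (rank 6), against rank 6 with 1 Mb. The arm ratio kept its direction under all 5 alternatives. No paired analysis was possible because no group has more than 1 library, and none could be left out. The unknown depth limits every density.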
